A study of Mus musculus with 6 samples.

Results

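Complex I, the NADH:ubiquinone oxidoreductase of the inner mitochondrial membrane, was followed through the nuclear genes that encode its subunits and the Ndufaf assembly factors that help to build it. Its genes were chosen by name alone: transcript clusters whose single gene symbol starts with Ndufa, Ndufb, Ndufc, Ndufs or Ndufv and a digit, or with Ndufaf. The rule found 42 genes among the 22087 tested, 35 with subunit names and 7 assembly factors. Each had a single cluster, all 42 passed the filter on dim clusters, and none shared identical values with another symbol. Of the 35, 3 are not in the list of complex I subunits used here: Ndufa4, now assigned to complex IV, its paralog Ndufa4l2, and Ndufb4b, a copy of Ndufb4. Ndufb1 and Ndufaf8 were not analysed here. The clusters of Ndufb4 and Ndufa11 also carry the symbol of a related copy, Gm3244 and Ndufa11b, and stayed outside the rule.

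The kidneys came from female Pkd1 miR transgenic mice, a model of polycystic kidney disease that aims at Pkd1 through a transgene. Both groups carried the transgene, with a promoter not given in the sources used here, and no group without it was analysed here. The metformin group (3 samples) had intraperitoneal injections of 150 mg per kg per day, and the saline group (3 samples) had saline injections; dosing began at postnatal day 35, and tissue was collected at day 63. Total RNA of snap-frozen kidney was hybridised to 1 single-colour array a sample, and values are log2 expression. The samples are labelled biological replicates with no animal named, so p-values measure the spread between these samples. Metformin, a biguanide used in diabetes, is known to inhibit complex I, so the comparison asks how the transcripts of this complex differ after the drug.

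Array medians lay between 4.67 and 4.86, and correlations across transcript clusters were 0.994 to 0.996 within metformin, 0.993 to 0.995 within saline and 0.984 to 0.993 between groups. Pkd1, the gene that the transgene targets, averaged 7.50 in metformin kidneys and 6.85 in saline kidneys (change 0.65, limma adjusted p = 0.0317). That call of Pkd1 ended with median-centring (adjusted p = 0.0592) and in the fits that left out metformin array 1 (0.0988), metformin array 2 (0.0983), saline array 1 (0.113) or saline array 3 (0.0768). All 12 proximal tubule markers and all 6 markers of later tubule segments passed the filter, among them Umod, the uromodulin gene of the thick ascending limb, at 18.7 to 18.9 with metformin and 18.9 to 19.1 with saline. Among all genes tested 9.08% were lower with metformin and 6.71% higher at an adjusted p under 0.05, 15.8% in both directions.

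Complex I passes electrons from NADH to ubiquinone and pumps protons across the inner membrane, which feeds ATP synthesis. Its peripheral arm in the matrix holds FMN and the iron-sulfur clusters along which electrons travel, and its membrane arm holds the proton channels. The core of the membrane arm is made by the ND genes of mitochondrial DNA, while the Nduf genes of the nucleus supply the rest of both arms. Proximal tubule cells, rich in mitochondria, are known to rely on this pathway for the transport of filtered solutes.

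In the metformin kidneys 7 of the 35 genes with subunit names fell (20%) and none rose, against the 9.08% of all genes that were lower. The same count over the 32 listed subunits of complex I was 7, or 21.9%. The median change of the 35 was -0.36 log2 units, where that of all genes was 0.02, and 30 of the 35 changes lay below 0 (47.1% of all genes did). In 19 of the 35, all metformin arrays lay below all saline arrays, 54.3% against 19.4% of all genes, and in none was the order the other way round (17.8% of all genes). At an unadjusted p under 0.05, 17 of the 35 (48.6%) were lower, against 17.1% of all genes. Among the assembly factors 2 of 7 fell (28.6%) and none rose, with a median change of -0.36. In kidney tissue, fewer cells of a type and less RNA per cell cannot be told apart. The genes were tested with limma across the whole table, and many calls ended when any array but saline array 2 was left out. Leaving out metformin array 1, 2 or 3 gave 1, 3 or 1 subunits that fell, where 3.2%, 3.54% or 4.86% of all genes were lower. Leaving out saline array 1, 2 or 3 gave 1, 14 or 1, where 2.22%, 9.66% or 5.37% of all genes were lower. The number of assembly factors that fell was 0, 0 or 1 and 0, 4 or 1 in the same fits. With quantile normalization 13 subunits and 17.2% of all genes were lower.

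**Figure D1:**
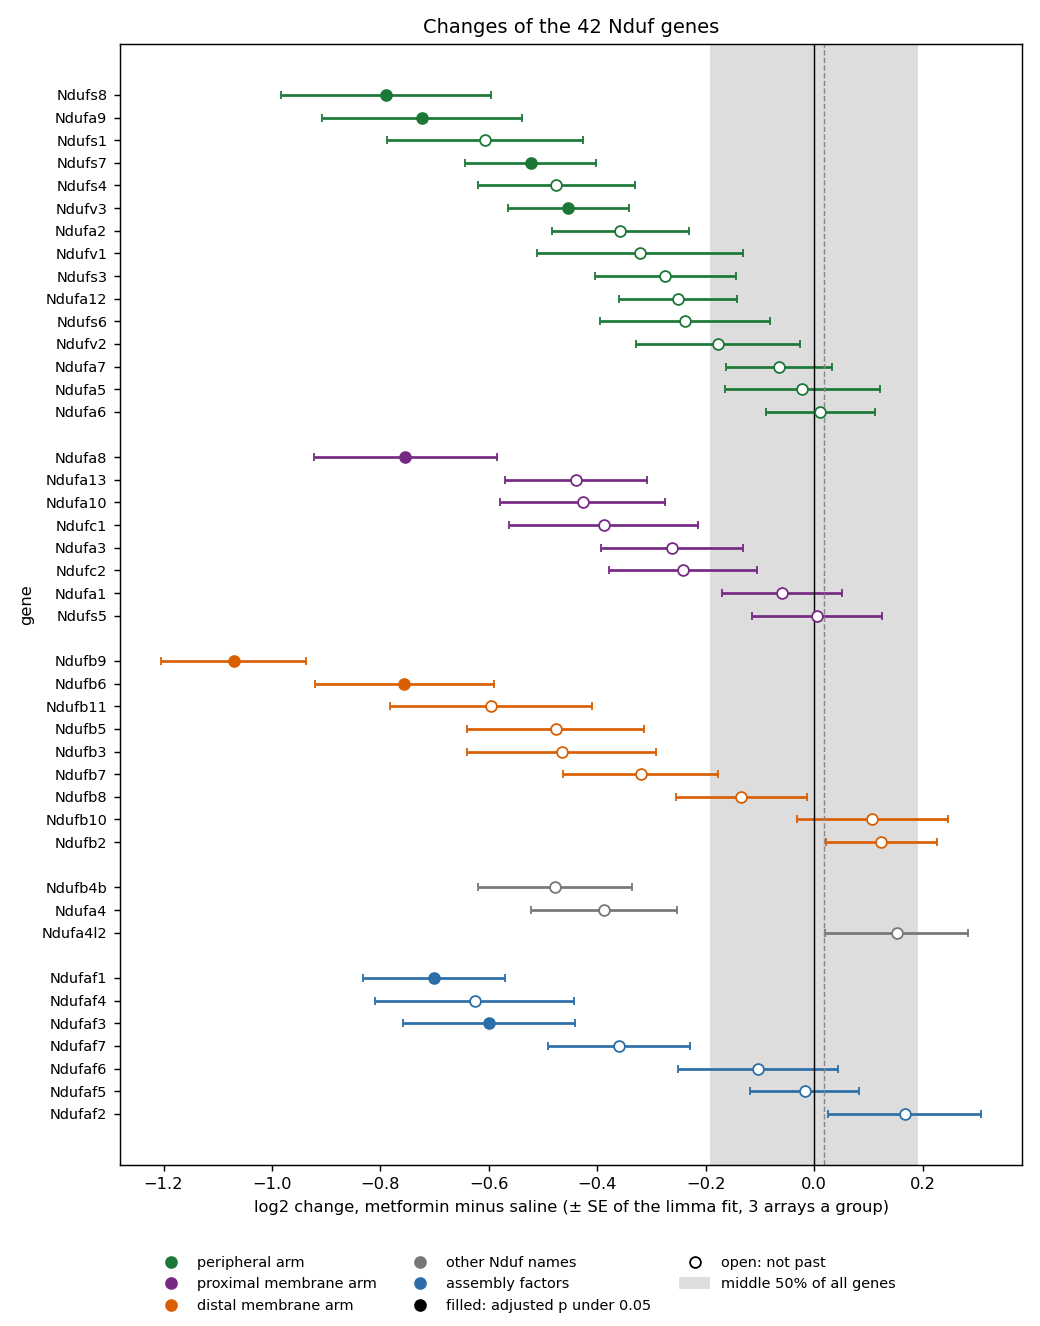
Log2 change (metformin minus saline, x axis) with its SE from the limma fit for each of the 42 Nduf genes (y axis), in the order of structural groups; filled points passed the adjusted threshold, the grey band spans the middle 50% of all genes tested and the dashed line is their median. Of the 9 filled points the lowest is Ndufb9 at -1.07, and the 33 open points run from -0.63 to 0.17.

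The distal membrane arm, the end of the complex that carries the ND4 and ND5 proton channels, held the gene with the lowest change of all 42. Ndufb9, an accessory subunit of the LYR protein family, read 15.88, 16.10 and 16.22 on metformin arrays 1 to 3, against 17.23, 16.93 and 17.26 on saline arrays 1 to 3. The groups were separated by more than the range of either. Its change was -1.07 ± 0.13 (SE; adjusted p = 0.00735), a level 2.10-fold lower with metformin, and only 1.31% of all genes tested had a lower change. The call held in each of the 6 fits that left out an array, with changes of -1.18 to -0.98. Except for metformin array 1, its values lie above 16, the log2 limit of a scanner of 16 bits, as do values of 792 clusters of the table, so its fold holds on the deposited scale only.

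Ndufb6, another accessory subunit of this arm, had 11.21, 11.71 and 11.50 with metformin, against 12.36, 11.96 and 12.36 with saline. The groups did not overlap, and their closest values were those of metformin array 2 and saline array 2. The change was -0.76 ± 0.17 (SE; adjusted p = 0.0257), or 1.69-fold lower. It was no longer called when metformin array 1 or 3, or saline array 1 or 3, was left out (adjusted p up to 0.0973). The other 7 genes of the distal arm did not pass, with changes of -0.60 to 0.12. Ndufb11, the X-linked subunit of this arm, had a change of -0.60 (adjusted p = 0.0688), Ndufb5 of -0.48 (0.0900) and Ndufb3 of -0.47 (0.113), by the limma test. Ndufb7 and Ndufb8 were at -0.32 and -0.13. Ndufb2 and Ndufb10 lay above 0, at 0.12 and 0.11, and both changed sign with quantile normalization.

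The proximal part of the membrane arm, which joins the peripheral arm, had 1 gene of 8 that fell, a share of 12.5% near the 9.08% of all genes that were lower. Ndufa8, an accessory subunit with paired cysteine motifs that faces the intermembrane space, read 12.65, 13.03 and 12.78 with metformin, against 13.89, 13.32 and 13.51 with saline. Saline array 1 was the highest and metformin array 1 the lowest. The change was -0.75 ± 0.17 (SE; adjusted p = 0.0273), 1.69-fold lower, and the call held when saline array 2 was left out but in none of the other 5 that left out an array (adjusted p up to 0.0888). The next lowest changes were those of Ndufa13, also known as GRIM-19, at -0.44 (limma adjusted p = 0.0600), and of Ndufa10, an accessory subunit related to nucleoside kinases, at -0.43 (0.0979). Ndufc1, Ndufa3 and Ndufc2 followed at -0.39, -0.26 and -0.24. Ndufa1 and Ndufs5 were at -0.06 and 0.01. These 2 subunits had metformin values of 10.94 to 11.16 and 7.05 to 7.25, which overlap their saline values of 11.02 to 11.28 and 6.97 to 7.28.

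Of 15 genes of the peripheral arm 4 fell (26.7%, against 9.08% of all genes). They include 2 of 6 core subunits, the genes of this arm that are conserved from bacteria. Ndufs8, which binds a pair of iron-sulfur clusters, read 12.56, 13.23 and 13.22 with metformin, against 13.79, 13.64 and 13.95 with saline. Metformin array 1 stood apart at the low end, and the groups did not overlap. The change was -0.79 ± 0.19 (SE; adjusted p = 0.0358), or 1.73-fold lower. Ndufs7, which holds the last iron-sulfur cluster before ubiquinone, had 10.43, 10.77 and 10.63 with metformin, against 11.26, 11.01 and 11.12 with saline. Its groups did not overlap either, and its change was -0.52 ± 0.12 (SE; adjusted p = 0.0303), 1.44-fold lower.

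The other 2 that fell are accessory subunits. Ndufa9, which sits where the arms meet and binds a nucleotide cofactor, had 12.59, 13.21 and 13.24 with metformin, against 13.82, 13.57 and 13.81 with saline. Metformin array 1 was again the lowest, and the change was -0.72 ± 0.19 (SE; adjusted p = 0.0401), 1.65-fold lower. Ndufv3, the small partner of the NADH-binding subunits, read 12.39, 12.55 and 12.61 with metformin, against 13.08, 12.81 and 13.02 with saline. It had the smallest change of the 9 genes that fell, -0.45 ± 0.11 (SE; adjusted p = 0.0360), or 1.37-fold lower. All 4 calls of the peripheral arm held when saline array 2 was left out, and that of Ndufs7 alone held when metformin array 2 was. None held when metformin array 1 or 3, or saline array 1 or 3, was left out (adjusted p up to 0.132).

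The 4 core genes that did not pass were Ndufs1, the largest iron-sulfur subunit, at -0.61 (limma adjusted p = 0.0609), Ndufv1, the NADH-binding subunit, at -0.32 (0.291), Ndufs3 at -0.27 (0.195) and Ndufv2 at -0.18 (0.470). Ndufs1 was called with replicate number as a block (adjusted p = 0.0462), with median-centring (0.0470), with quantile normalization (0.0355), with array weights (0.0497) and when saline array 2 was left out (0.0387). Its values were 12.49, 12.96 and 13.02 with metformin and 13.43, 13.18 and 13.69 with saline, without overlap. Ndufs4, an accessory subunit whose loss is known to cause a Leigh-like disease in mice, had a change of -0.48 (adjusted p = 0.0639). Ndufa2, Ndufa12 and Ndufs6, further accessory subunits of this arm, were at -0.36, -0.25 and -0.24. At the other end Ndufa7, Ndufa5 and Ndufa6 had changes of -0.06, -0.02 and 0.01. Ndufa6 lay at 11.40, 11.33 and 11.39 with metformin, against 11.44, 11.21 and 11.44 with saline, so that the metformin values fell within the saline range.

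The 3 genes with subunit names outside the list did not pass. Ndufb4b read 15.40, 15.48 and 15.40 with metformin, against 16.13, 15.60 and 15.98 with saline (change -0.48, limma adjusted p = 0.0604), and signal of Ndufb4 on its probes was not examined. Ndufb4b was called with median-centring (adjusted p = 0.0360), quantile normalization (0.0314), array weights (0.0321) and when saline array 2 was left out (0.0139). Ndufa4 had a change of -0.39 (adjusted p = 0.0919), and was called with quantile normalization (0.0385) and when saline array 2 was left out (0.0449). Ndufa4l2, a paralog known as a target of hypoxia-inducible factor, had a change of 0.15 (adjusted p = 0.478), the highest among the subunit names.

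**Figure D2:**
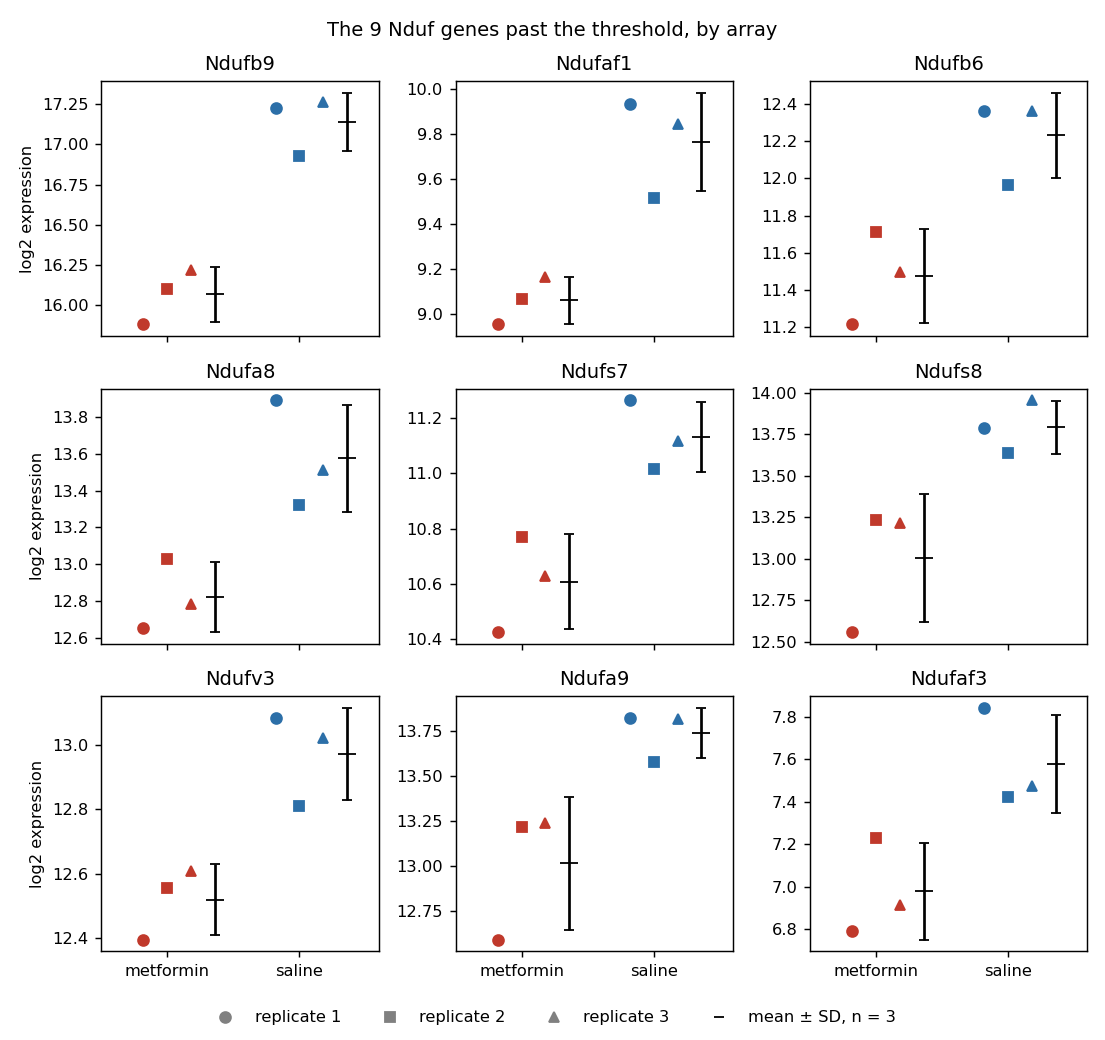
Log2 expression (y axis) of the 9 Nduf genes past the adjusted threshold on the 3 metformin and the 3 saline arrays (x axis), 1 panel a gene with its own scale; symbols mark the replicate number and the bars are mean ± SD, n = 3. In all 9 panels each metformin value lies below each saline value, and metformin replicate 1 is the lowest point.

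The assembly factors do not stay in the finished complex. Ndufaf1, a factor of the assembly complex that builds the ND2 part of the membrane arm, fell: it read 8.95, 9.07 and 9.16 with metformin, against 9.93, 9.52 and 9.84 with saline. The groups did not overlap, and metformin array 3 and saline array 2 were nearest. The change was -0.70 ± 0.13 (SE; adjusted p = 0.0168), 1.63-fold lower, and it was not called when metformin array 1, metformin array 2 or saline array 1 was left out (adjusted p up to 0.0662). Ndufaf3, which with Ndufaf4 helps to assemble the quinone-binding part, read 6.79, 7.23 and 6.91 with metformin, against 7.84, 7.42 and 7.47 with saline. Its change was -0.60 ± 0.16 (SE; adjusted p = 0.0434), or 1.52-fold lower, and the call ended with replicate number as a block (adjusted p = 0.0650), with no filter on dim clusters (0.0504) and when any array but saline array 2 was left out (up to 0.132).

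Ndufaf4 had 9.58, 9.57 and 9.70 with metformin, against 10.51, 9.81 and 10.41 with saline. These groups did not overlap either, yet with a saline SD of 0.38 the change of -0.63 ± 0.18 (SE) did not pass (adjusted p = 0.0577). It passed with replicate number as a block (0.0424), with median-centring (0.0353), with quantile normalization (0.0407), with array weights (0.0285) and when saline array 2 was left out (0.0100). Ndufaf7, a mitochondrial methyltransferase, had a change of -0.36 (limma adjusted p = 0.105). The remaining 3 factors lay near 0: Ndufaf6 at -0.10, Ndufaf5, which hydroxylates the Ndufs7 protein, at -0.02, and Ndufaf2, which binds a late intermediate of the complex, at 0.17. Ndufaf2 read 6.73, 6.45 and 6.36 with metformin, against 6.52, 6.14 and 6.38 with saline, with overlap.

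Further genes of complex I, taken from a list and not by name, were lower as well. Of 13 tested (the acyl carrier subunit Ndufab1 and 12 other genes tied to complex I), 8 fell (61.5%, against 9.08% of all genes), none rose, and the median change was -0.63. The median of the 7 Ndufaf factors was -0.36, and the difference between the lists was not tested. The 8 include Acad9, Ecsit and Tmem126b, which work with Ndufaf1 in the same assembly complex. Acad9 had a change of -0.71 (limma adjusted p = 0.0385), Ecsit of -0.76 (0.0312) and Tmem126b of -0.70 (0.0458). The other 5 were Aifm1, a flavoprotein needed for import of respiratory chain subunits, at -1.13, Tmem70 at -0.75, Tmem126a at -0.74, Lyrm2 at -0.63 and Nubpl, which delivers iron-sulfur clusters to complex I, at -0.51. Lyrm2 read 7.25, 7.37 and 7.42 with metformin, against 8.05, 7.92 and 7.96 with saline, and its call held in each of the 6 fits that left out an array. Ndufab1, which also serves mitochondrial fatty acid synthesis, had a change of -0.07. The count of 8 became 1, 2 or 3 when metformin array 1, 2 or 3 was left out, where 3.2%, 3.54% or 4.86% of all genes were lower. It became 1, 8 or 3 when saline array 1, 2 or 3 was left out (2.22%, 9.66% or 5.37% of all genes). With replicate number as a block Tmem126a was not called (adjusted p = 0.0691) and Foxred1, at -0.59, was (0.0316, against 0.0561 without the block).

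Of 37 nuclear genes for subunits of complexes II to V, 8 fell (21.6%, against 9.08% of all genes), with a median change of -0.29 (0.02 over all genes). By complex, 1 of 4 genes fell in complex II, 3 of 9 in complex III, 0 of 10 in complex IV and 4 of 14 in complex V, with medians of -0.42, -0.44, -0.22 and -0.30. The lowest was Sdhd, a membrane anchor of complex II, at -1.29. The count of 8 over complexes II to V became 3, 4 or 5 when metformin array 1, 2 or 3 was left out, where 3.2%, 3.54% or 4.86% of all genes were lower. It became 2, 9 or 3 when saline array 1, 2 or 3 was left out (2.22%, 9.66% or 5.37% of all genes) and 14 with quantile normalization (17.2%). Of the mitochondrially encoded subunits of complex I, 3 were tested. ND6, the subunit encoded on the opposite strand to the other ND genes, read 15.01, 15.32 and 15.55 with metformin, against 14.34, 14.19 and 14.86 with saline, and rose by 0.83 (limma adjusted p = 0.0360). ND6 was not called when any array but saline array 3 was left out (adjusted p up to 0.125). ND2 and ND3 each had a change of 0.03, and neither passed. ND2 read 17.39 to 17.61 and ND3 19.43 to 19.62 over all arrays, above the log2 limit of 16 given for Ndufb9. The highest deposited value was 19.93, and whether changes are compressed at such levels was not tested.

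**Figure D3:**
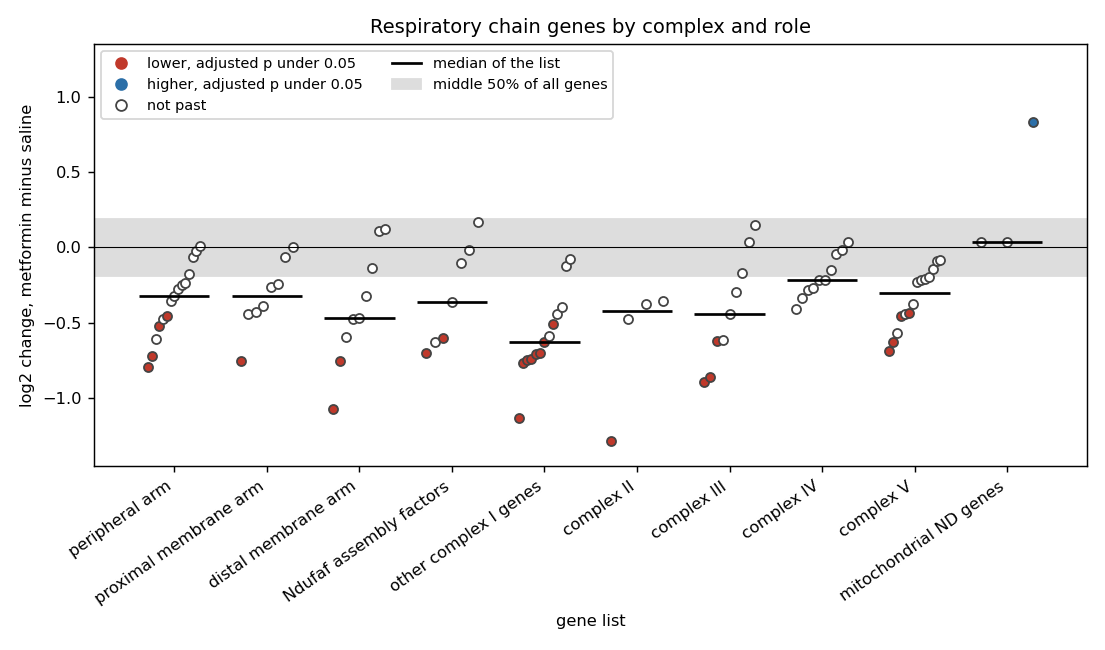
Log2 change (metformin minus saline, y axis) of each gene in lists of complex I parts, the other complexes and the mitochondrial ND genes (x axis), with the median of each list as a line and the middle 50% of all genes as a band. The medians of the nuclear lists lie between -0.63 (other complex I genes) and -0.22 (complex IV), below the band's lower edge of -0.19.

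Of 10 regulators of respiratory chain genes 1 fell and 2 rose, where 9.08% of all genes were lower and 6.71% higher, so that the count that fell was near the share of all genes. Nrf1, the nuclear respiratory factor that binds promoters of many subunits, read 7.46, 7.36 and 7.18 with metformin, against 6.88, 7.03 and 6.88 with saline (change 0.40, limma adjusted p = 0.0448). The coactivator Pprc1 rose by 0.50 (adjusted p = 0.0400). Both calls ended with median-centring (adjusted p = 0.100 for Nrf1 and 0.0779 for Pprc1), with quantile normalization (0.177 and 0.0823) and when any array but saline array 2 was left out (up to 0.143 and 0.126). That of Nrf1 also ended with no filter on dim clusters (0.0510) and with all clusters tested (0.0530). The fatty acid receptor Ppara fell by 1.05 (adjusted p = 0.0312, not called when metformin array 3, saline array 1 or saline array 3 was left out, at up to 0.102). Tfam, the mitochondrial DNA-binding factor, had a change of -0.54 and did not pass (limma adjusted p = 0.0506). It was called with replicate number as a block (adjusted p = 0.0408), median-centring (0.0300), quantile normalization (0.0295) and array weights (0.0263). Tfam was also called with the stricter filter on dim clusters (0.04465) and when saline array 2 was left out (0.0136).

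The genomic sequence before and after the transcript start was searched for letters that such factors bind. RefSeq promoters of assembly GRCm38.p6, from 250 bases before the start to 50 after it, were found for 37 of the 42 genes, and Ndufb9 is not among them. A match is a description of the letters, not a site in use. AAGATGGC, the letters of YY1, was found on either strand in 7 of 37 genes (18.9%) and in 3.2% of the 27025 genes of the table. All 7 matches lay 22 to 38 bases after the start on the strand of the gene, and 1.04% of all genes had a match anywhere after the start on that strand. Their letters hold ATG, and whether it is the start codon was not examined. The 7 stretches of 30 bases around the matches are printed on the strand of each gene, with the match in capitals, to show where it lies; they share these letters by the way they were chosen.
Ndufa3 (chr7:3617384-3617413, + strand): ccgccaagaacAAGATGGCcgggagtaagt
Ndufa9 (chr6:126849097-126849126, - strand): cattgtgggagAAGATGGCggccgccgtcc
Ndufb8 (chr19:44555393-44555422, - strand): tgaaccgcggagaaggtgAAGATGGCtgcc
Ndufc1 (chr3:51408915-51408944, - strand): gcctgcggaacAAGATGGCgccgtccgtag
Ndufs4 (chr13:114388045-114388074, - strand): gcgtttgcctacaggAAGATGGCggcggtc
Ndufs6 (chr13:73328433-73328462, - strand): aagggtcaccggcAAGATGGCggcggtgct
Ndufs7 (chr10:80249462-80249491, + strand): aggccgaggccAAGATGGCggcgctggcgg

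Of these 7 genes Ndufa9 and Ndufs7 fell, where 8 of all 37 genes with a promoter did, and the changes of all 7 ran from -0.72 to -0.13. TGCGCA, the palindromic core of the nuclear respiratory factor site, was found in 10 of 37 genes (27.0%) and in 8.8% of all genes. Ndufa8, Ndufa9 and Ndufb6 were the 3 of these 10 that fell (8 of the 37 did), and the changes of the 10 ran from -0.76 to 0.11. A link between these letters and the changes was not tested. The whole palindromic site of that factor, which can overlap the core, was in Ndufaf4 and Ndufaf5 (5.4%, against 1.1% of all genes). The stretches before the start are shown for both genes that fell with a match wholly before it, and for Ndufaf4 with the whole site, with the letters of core and site in capitals.
Ndufb6 (chr4:40279422-40279521, - strand): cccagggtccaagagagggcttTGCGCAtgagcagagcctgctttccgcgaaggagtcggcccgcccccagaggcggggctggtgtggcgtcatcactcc
Ndufa9 (chr6:126849145-126849244, - strand): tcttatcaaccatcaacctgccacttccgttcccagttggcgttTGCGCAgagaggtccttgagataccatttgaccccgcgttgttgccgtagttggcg
Ndufaf4 (chr4:24897953-24898082, + strand): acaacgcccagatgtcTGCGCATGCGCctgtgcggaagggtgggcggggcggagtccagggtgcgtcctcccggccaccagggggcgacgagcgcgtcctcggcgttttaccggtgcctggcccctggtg

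The GABP letters CCGGAAGT were found on either strand in 1 of 37 genes, Ndufs3 (2.7%, against 4.3% of all genes). TGACCTT, the core of the estrogen-related receptor site, was in Ndufb2 and Ndufs5 (5.4%, against 5.4%), and the longer TCAAGGTCA, whose reverse strand overlaps that core, in none of the 37 (0.5% of all genes). The GC content of the windows had a median of 59.0% over the members and 52.8% over all genes.

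Within each group the arrays stood in a like order for many of the genes. With each gene centred on its mean of the 6 arrays, the mean deviation of the 35 subunit names was -0.36, -0.04 and -0.12 on metformin arrays 1 to 3, against 0.26, 0.01 and 0.24 on saline arrays 1 to 3. Metformin array 1 was the lowest of the 6 in 32 of the 42 genes, and saline array 2 the lowest saline array in 35. For the 7 assembly factors the deviations were -0.19, -0.11 and -0.19 with metformin, against 0.34, -0.07 and 0.21 with saline.

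Markers of cell types differed between the same arrays. Of 12 proximal tubule markers 2 fell, Slc5a12 and Slc22a8 (16.7%, against 9.08% of all genes), and all 12 had changes below 0 (47.1% of all genes did). The 12 deviated by -0.67, -0.25 and -0.03 on metformin arrays 1 to 3, against 0.26, 0.15 and 0.54 on saline arrays 1 to 3. Their median change was -0.76, and both calls ended when metformin array 1, metformin array 2, saline array 1 or saline array 3 was left out (adjusted p up to 0.0803 for Slc5a12 and 0.112 for Slc22a8). Of 12 adipocyte markers listed 9 were tested, which may favour markers high in 1 group. Among the 9, 1 fell, Adipoq (11.1%, near the 9.08% of all genes), and all 9 had changes below 0. Adipoq read 4.05, 4.25 and 4.13 with metformin, close to 4.03, the highest mean that the filter removed. These deviated by -0.72, -0.69 and -0.69 with metformin, against 0.88, 1.63 and -0.41 with saline. Ucp1, the uncoupling protein of brown fat, read 3.96, 3.74 and 3.91 with metformin, against 7.46, 10.29 and 4.68 with saline. Its metformin values all lie below that mean of 4.03, so it passed the filter only through its saline values, and it was not called (limma adjusted p = 0.0805). Saline array 2, with the most adipocyte signal (1.63), had the lowest subunit deviation of the saline arrays (0.01). Saline array 1, with the next most (0.88), had the highest (0.26). The median subunit change was -0.39 without saline array 2 and -0.28 without saline array 1, against -0.36 with all arrays. The call of Adipoq ended when any metformin array or saline array 1 was left out (up to 0.145) and with no filter on dim clusters (0.0564). Of 9 macrophage markers 1 rose, Lyz2, where 6.71% of all genes were higher. All 9 had changes above 0 (11686 of the 22087 genes tested did), with a median of 0.48. The macrophage list deviated by 0.60, 0.44 and 0.08 with metformin, against -0.45, 0.36 and -1.02 with saline, with overlap. Lyz2 was called in the fit that left out saline array 2 and in none of the other 5 (adjusted p up to 0.119). The part of proximal tubule, adipocyte and macrophage signal in the complex I changes was not tested.

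**Figure D4:**
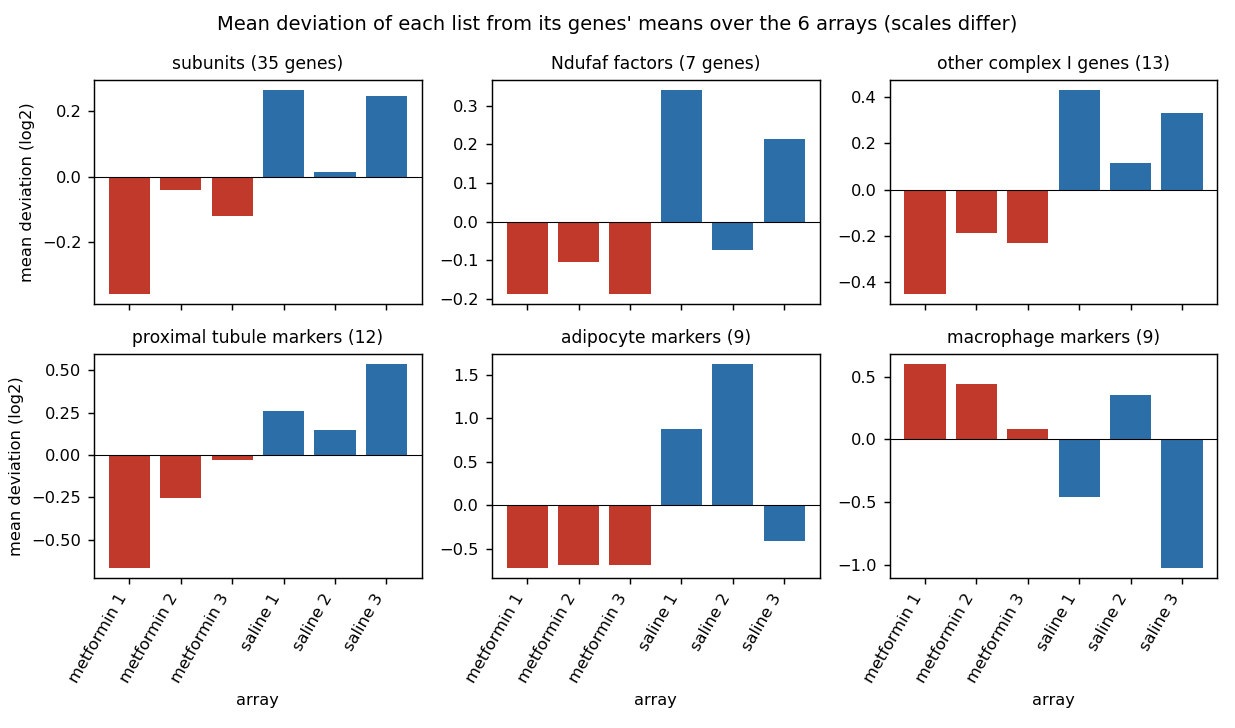
Mean deviation in log2 units (y axis, scales differ between panels) of the genes of 6 lists, each gene centred on its own mean, for the 3 metformin and the 3 saline arrays (x axis). The subunit bars run from -0.36 on metformin array 1 to 0.26 on saline array 1, where the adipocyte bar is 0.88. The adipocyte bar is highest, at 1.63, on saline array 2, where the subunit bar is 0.01.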

How the data were processed

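Each deposited value is the log2 expression of a transcript cluster. The submitters' processing notes name RMA and, for the authors' software, Transcriptome Analysis Console 4.0, with the RMA variant not given in the sources used here. Of 65956 clusters (values 1.94 to 19.93), the platform annotation gave 30604 a single symbol and 2146 several, and 33206 are unnamed here. After removal of the dimmest 33.3% by mean over all arrays (up to 4.03), the brightest cluster of each symbol was kept, which left 22087 genes. Symbols were updated through RefSeq's table of GRCm38.p6.

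The difference metformin minus saline was fitted for all genes in limma 3.58.1 (R 4.3.3; lmFit, then eBayes with its defaults), two-sided, and p-values were adjusted by Benjamini-Hochberg over all 22087 genes at a threshold of 0.05. SE is that of the fit, and 3 arrays a group limit the precision. The procedure was tested on simulated data with independent noise for each gene, which cannot show how array differences shared by many genes affect the calls. The members, lists and tests were chosen with earlier results of these data known. Any of the 42 members may be named, with values on every array for those past the threshold; of other lists, the genes past the threshold, up to 2 with the smallest p, and defining markers. Foxred1, Ndufab1 and the array values of members that did not pass were chosen after they were seen, as were the sequence stretches.

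Deviations of same-numbered arrays from their group means had correlations over genes of 0.118, 0.145 and 0.541 for numbers 1, 2 and 3 of the sample titles. Metformin 1 with saline 2 reached 0.299, and no label says what a number marks. The fit that gave the calls did not pair arrays. Replicate number entered only as a block, among the alternatives and on the ground of these correlations alone. Alternatives were replicate number as a block, each array left out, median-centring, quantile normalization, no filter or a filter at 50% of clusters, averaging a symbol's clusters, testing every cluster, the trend and robust options, and array weights. Motifs were searched on both strands of the promoter windows.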

Additional observations from a re-analysis of the deposited data

How the results depend on the processing

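Of 7 subunits and 2 assembly factors that fell, leaving out 1 array at a time gave 1 to 14 subunits (all lower) and 0 to 4 assembly factors, and the median changes stayed below 0. The 9 calls held without saline replicate 2, and 1 to 3 of them held in each of the other 5 such fits. With quantile normalization 13 subunits and 4 assembly factors fell, the assembly factor median was -0.53, and the median of all genes moved by -0.12. Relative to it the subunit median was -0.35, against -0.38 as deposited. With no filter on dim clusters 1 assembly factor and 6.1% of all genes fell. With the replicate block 8 subunits and 2 assembly factors fell, where 11% of all genes were lower (9.08% without the block), with Ndufs1 and Ndufaf4 gained and Ndufaf3 lost, and the block changed no other member's call. Ndufb11, Ndufs4 and Ndufaf7 also passed with quantile normalization and without saline replicate 2, Ndufs4 with median-centring, Ndufa13 with quantile normalization, and Ndufa10 and Ndufb3 without saline replicate 2. Among single members, 2 calls ended and 17 were gained over the alternatives that kept all arrays, and 36 ended and 9 were gained over those that left out an array.

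Changes near 0 turned round in 9 members, none of them called. With quantile normalization the change was -0.049 for Ndufaf2, -0.063 for Ndufb2, -0.070 for Ndufb10, -0.0034 for Ndufa6 and -0.22 for Ndufs5. With median-centring it was -0.079 for Ndufa6 and -0.085 for Ndufs5, and with array weights 0.035 for Ndufa5, -0.017 for Ndufa6 and -0.00018 for Ndufs5. With single arrays left out the range was -0.26 to 0.0015 for Ndufaf6, -0.085 to 0.046 for Ndufaf5, -0.023 to 0.23 for Ndufb10, -0.092 to 0.094 for Ndufa5, -0.067 to 0.051 for Ndufa6, -0.12 to 0.016 for Ndufa1 and -0.097 to 0.068 for Ndufs5. The cause was not tested. Fits without an array have fewer samples, and 3 arrays a group limit what can be called.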

Other observations

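The chromosomes of the 9 genes that fell were 2 (Ndufaf1 and Ndufa8), 4 (Ndufb6), 6 (Ndufa9), 9 (Ndufaf3), 10 (Ndufs7), 15 (Ndufb9), 17 (Ndufv3) and 19 (Ndufs8).

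The clusters that carry several symbols gave 8.28, 8.33 and 8.31 with metformin, against 8.67, 8.33 and 8.80 with saline, for Ndufb4 with Gm3244. Those of Ndufa11 with Ndufa11b were 7.19, 7.62 and 7.48 with metformin, against 7.40, 7.52 and 7.66 with saline. The groups overlapped in both. Ndufb4b, the copy with its own cluster, did not overlap between groups.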
